A study of Mus musculus with 35 samples.

Results

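Genes of the motile cilium, of the transport system that builds cilia and of the BBSome were followed in whole lungs of mice that had inhaled styrene. A list of 42 such genes was looked up in the array's annotation, and a gene was read from the brightest probe set, by the mean of all 35 arrays, among those annotated with exactly that 1 symbol. In this way 39 genes were measured, out of 17097 genes read by the same rule, while Dynlrb2, Tekt4 and Arl6 were not annotated and were not analysed here. The animals were adult male CD-1 mice, an outbred stock, which breathed air alone (0 ppm) or styrene, a volatile aromatic solvent, at 1, 5, 10, 20, 40 or 120 ppm. Each of the 7 groups held 5 mice with 1 array per mouse. The labels disagree on the length of exposure: the protocol gives 1 exposure of 6 hours and the sample titles 1 day, whereas other labels give 5 days, and no choice between them is made here. No allele, transgene or other agent is named, and whole lung mixes airway, alveolar, vascular and immune cells.

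A motile cilium is a moving extension of the cell built on an axoneme of microtubules, and in the lung it is carried by the ciliated cells of the airways, whose beat clears mucus. Dynein arms drive the beat, radial spokes, nexin links and the central pair shape it, and tektins strengthen the microtubules. Intraflagellar transport (IFT) moves cargo along the axoneme, with the B complex carrying it to the tip and the A complex returning it. The BBSome, named after Bardet-Biedl syndrome, couples membrane proteins to these trains. Transport and BBSome genes also serve the non-motile primary cilium that many other lung cells carry.

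Most of these genes were higher at every concentration from 5 ppm up, and a small group that included the master regulator Foxj1 was lower. At 120 ppm, 29 of the 39 were called higher and 6 lower than in air, by limma with Benjamini-Hochberg adjustment over the 17097 genes, at an adjusted p below 0.05. Their median log2 change was 1.06, beside -0.15 over all genes. Calls were common in these lungs: of the 17097 genes 68.9% passed at 120 ppm, 29.8% upward and 39.1% downward. Across all genes more fell than rose, whereas in the list most called genes rose. The tissue is a mixture, so fewer cells of a type and less RNA per cell cannot be told apart in any of these values.

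**Figure D1:**
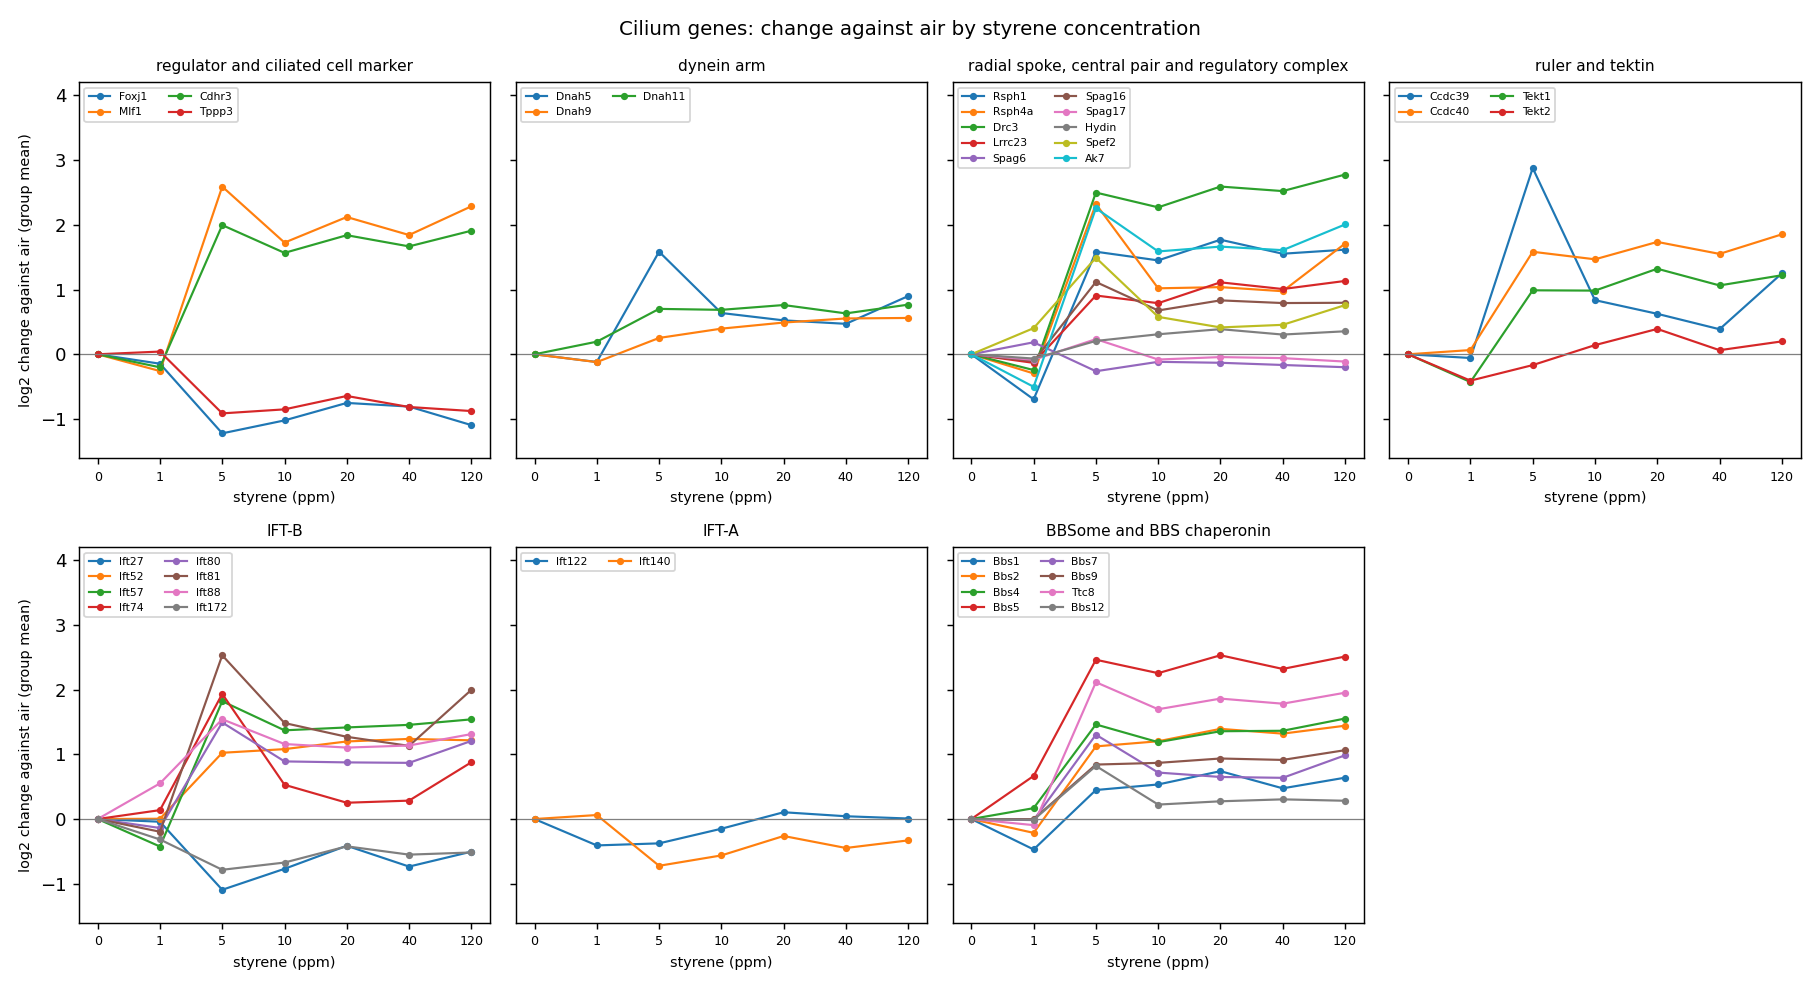
Change of each of the 39 genes by styrene concentration, in panels by role. The horizontal axis gives ppm in even steps from 0 to 120, the vertical axis the log2 difference of the group mean (5 mice each) from air. Lines lie between -0.70 and 0.67 at 1 ppm and, for most genes, well above 0 from 5 ppm on.

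The step lay between 1 and 5 ppm. At 1 ppm 2 genes were called higher and 1 lower, with 2.46% of all genes called (0.965% higher and 1.49% lower), and the median change was -0.11. At 5 ppm 28 were higher and 7 lower (77.0% of all genes called, 29.6% higher and 47.4% lower), with a median of 1.12. At 10 ppm the counts were 27 and 5 (66.4% of all genes, 29.0% and 37.4% by direction). At 20 ppm they were 29 and 3 (63.6%, or 29.4% and 34.2%), and at 40 ppm 26 and 5 (64.8%, or 28.6% and 36.2%). The medians at these 3 concentrations were 0.79, 0.83 and 0.79. The 5 higher concentrations thus gave similar counts. All comparisons with air share the same 5 control mice.

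Most calls were also large and cleanly separated. A call with at least a 1.5-fold change was made for 29 of the 39 genes at 120 ppm, beside 46.1% of all genes, and for 1, 32, 28, 26 and 25 at 1, 5, 10, 20 and 40 ppm, beside 0.702%, 52.8%, 43.9%, 41.2% and 42.6%. At 120 ppm the mice of 27 genes lay all above, and of 3 all below, the 5 air mice, beside 50.7% of all genes in either direction. Such separation upward and downward was seen for 1 and 1 genes at 1 ppm (1.25% of all genes), 26 and 3 at 5 ppm (57.9%), 23 and 3 at 10 ppm (49.2%), 21 and 1 at 20 ppm (41.3%) and 24 and 3 at 40 ppm (47.6%). Upward separation made up nearly all of it in this list from 5 ppm up.

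Of the 39 genes, 24 (61.5%) were called higher at all 5 concentrations from 5 ppm, beside 24.6% of all genes. Lower at all 5 were Foxj1, Tppp3 and Ift172, which is 7.69% of the list beside 29.3% of all genes. For 16 genes the 25 mice at 5 ppm or more all lay above all 10 mice at 1 ppm or in air, and for Tppp3 they all lay below; 29.5% of all genes were separated in this way in either direction. A straight trend of the log2 value over log2(ppm + 1) was called higher for 28 genes and lower for 6, with 72.6% of all genes called, 30.9% higher and 41.8% lower. With the interquartile range of the array as a covariate the trend was called higher for 7 genes and lower for 0.

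Taken mouse by mouse, the median difference of the 39 genes from their air means was between 0.79 and 1.21 at 120 ppm and between 0.86 and 1.56 at 5 ppm, against -0.17 to 0.13 in air. At 10, 20 and 40 ppm the mice lay between 0.53 and 1.12. The 1 ppm mice lay between -0.15 and -0.04, inside the range of the air mice. Every mouse from 5 ppm up was thus above every mouse at 1 ppm or in air.

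The arrays themselves also differed in this way. The interquartile range of all log2 values on an array was 3.28 to 3.54 at 5 to 120 ppm and 2.66 to 3.16 at 1 ppm and in air, with no overlap. With this range as a covariate, 24, 19, 20, 19 and 23 genes were called higher at 5, 10, 20, 40 and 120 ppm, and 1 was called lower at each. The leading direction of variation between mice of a group held 18.8% of that variation, and the arrays from 5 ppm up did not share a range on it with those of 1 ppm or air. With this array axis as a covariate, 9, 13, 19, 15 and 16 genes were called higher at 5, 10, 20, 40 and 120 ppm, and 0, 2, 1, 2 and 1 lower, the last being Tppp3. The median change was then 0.56 at 5 ppm and 0.64 at 120 ppm. Such a fit extrapolates between groups. Centring each array on its median moved the median change of all genes at 5 ppm to -0.33, beside -0.23 as deposited, and that of the 39 genes to 1.02. Beyond these fits the array differences and the concentrations cannot be told apart.

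**Figure D2:**
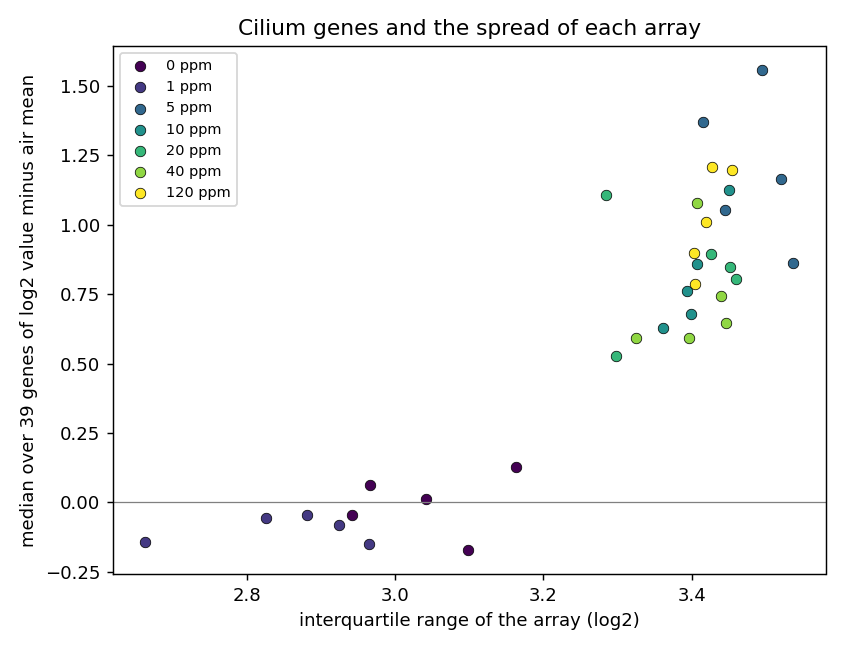
One point per mouse, 35 in all, coloured by styrene concentration. The horizontal axis is the interquartile range of all log2 values on the array, the vertical axis the median over the 39 genes of the log2 value minus the air mean. The air and 1 ppm mice sit at the lower left, up to 3.16 and near 0, and the mice from 5 ppm up at the upper right.

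The sequences upstream of these genes were examined because RFX factors and FOXJ1, which are the known regulators of cilium genes, bind recognisable elements. RefSeq promoter windows of 300 bases, 250 before and 50 after the annotated start (build GRCm38.p6), were found for 32 of the 39 genes. The core of the RFX element, searched as GTTGCC on both strands, was present in 17 of the 32 (53.1%), against 14.1% of 27025 genes with a window. It was found in 12 of 25 genes called higher at 120 ppm, in all 4 called lower that had a window, and in 1 of 3 not called. A forkhead element, TGTTTAC on both strands, was present in Mlf1 and Ak7, or 6.25% of the 32 against 4.05% of all genes. A match is a description of letters and not a bound site.

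Windows of 40 bases around the RFX core, in capitals, are shown for 3 genes that were higher and 3 that were lower at 120 ppm, since the same letters stand in both. Each is written 5′ to 3′ on the strand that carries the core.
Mlf1 (higher), chr3:67373982-67374021, plus strand: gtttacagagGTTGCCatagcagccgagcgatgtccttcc
Ift57 (higher), chr16:49699224-49699263, plus strand: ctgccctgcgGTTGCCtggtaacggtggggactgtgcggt
Bbs7 (higher), chr3:36613481-36613520, minus strand: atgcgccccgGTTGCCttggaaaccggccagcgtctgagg
Ift27 (lower), chr15:78174061-78174100, minus strand: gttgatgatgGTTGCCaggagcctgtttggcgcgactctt
Ift140 (lower), chr17:25015953-25015992, minus strand: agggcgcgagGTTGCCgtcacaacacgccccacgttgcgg
Ift172 (lower), chr5:31291085-31291124, minus strand: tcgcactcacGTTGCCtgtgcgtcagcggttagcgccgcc

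The Mlf1 window is the one that held both elements, side by side, and is given whole (chr3:67373847-67374146, plus strand), with the forkhead element and the RFX core in capitals.
Mlf1 promoter: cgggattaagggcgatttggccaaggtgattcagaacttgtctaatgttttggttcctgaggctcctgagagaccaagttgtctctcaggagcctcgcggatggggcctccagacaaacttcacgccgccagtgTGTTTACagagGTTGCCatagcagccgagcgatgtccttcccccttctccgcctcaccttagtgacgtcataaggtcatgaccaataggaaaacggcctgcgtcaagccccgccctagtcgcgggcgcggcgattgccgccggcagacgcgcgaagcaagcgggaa

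Among the regulators and ciliated cell markers, Foxj1 and Tppp3 moved opposite to Mlf1 and Cdhr3. Foxj1, the forkhead factor that switches on the motile cilium programme, had log2 values of 7.28, 7.41, 7.06, 7.15 and 6.85 at 120 ppm, against 9.05, 7.93, 8.19, 8.21 and 7.84 in air, with no overlap. It fell by 1.09 ± 0.312 (SE) on the log2 scale (adjusted p = 0.0026). At 5 ppm it fell by 1.22 and at 10 ppm by 1.02, and at 20 and 40 ppm by 0.75 and 0.81. Its mice overlapped those of air at 5, 10 and 20 ppm, with highest values of 7.91, 7.89 and 8.51, and did not at 40 ppm. The 20 and 40 ppm calls rest on single mice: without air mouse 1 the changes were -0.55 (adjusted p = 0.139) and -0.61 (adjusted p = 0.101), without air mouse 4 the 20 ppm change was -0.76 (adjusted p = 0.0507), without 20 ppm mouse 4 or 5 it was -0.56 or -0.55 (adjusted p = 0.134 for both), and without 40 ppm mouse 5 the 40 ppm change was -0.64 (adjusted p = 0.0826). The direction turned with the array axis as covariate, to 0.48, 0.15, 0.21, 0.22 and 0.16 at 5, 10, 20, 40 and 120 ppm, and with the interquartile range at 20 and 40 ppm (0.17 and 0.16), none of them called (adjusted p between 0.711 and 0.879).

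Tppp3, a tubulin polymerisation promoting protein that is abundant in ciliated cells, had 11.29, 11.42, 11.27, 11.13 and 11.22 at 120 ppm, against 12.60, 12.03, 12.10, 11.93 and 12.04 in air. It fell by 0.88 ± 0.105 (SE; adjusted p = 7.81e-09), and by 0.64 to 0.91 at the other concentrations from 5 ppm. No exposed mouse from 5 ppm up reached the lowest air or 1 ppm mouse.

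Mlf1, described as a FOXJ1 target in ciliated cells, had 6.76, 6.95, 6.70, 7.04 and 6.56 at 120 ppm, against 4.81, 4.13, 4.80, 4.24 and 4.59 in air. It rose by 2.29 ± 0.221 (SE; adjusted p = 8.52e-11), and by 1.72 to 2.59 at 5 to 40 ppm. Cdhr3, the cadherin of ciliated cells that serves rhinovirus C as a receptor, had 7.13, 7.29, 6.77, 7.38 and 7.14 at 120 ppm, against 5.31, 4.53, 5.33, 5.60 and 5.39 in air. The rise was 1.91 ± 0.214 (SE; adjusted p = 1.83e-09). Both genes had all 25 mice from 5 ppm above all 10 others, and neither was called at 1 ppm.

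**Figure D3:**
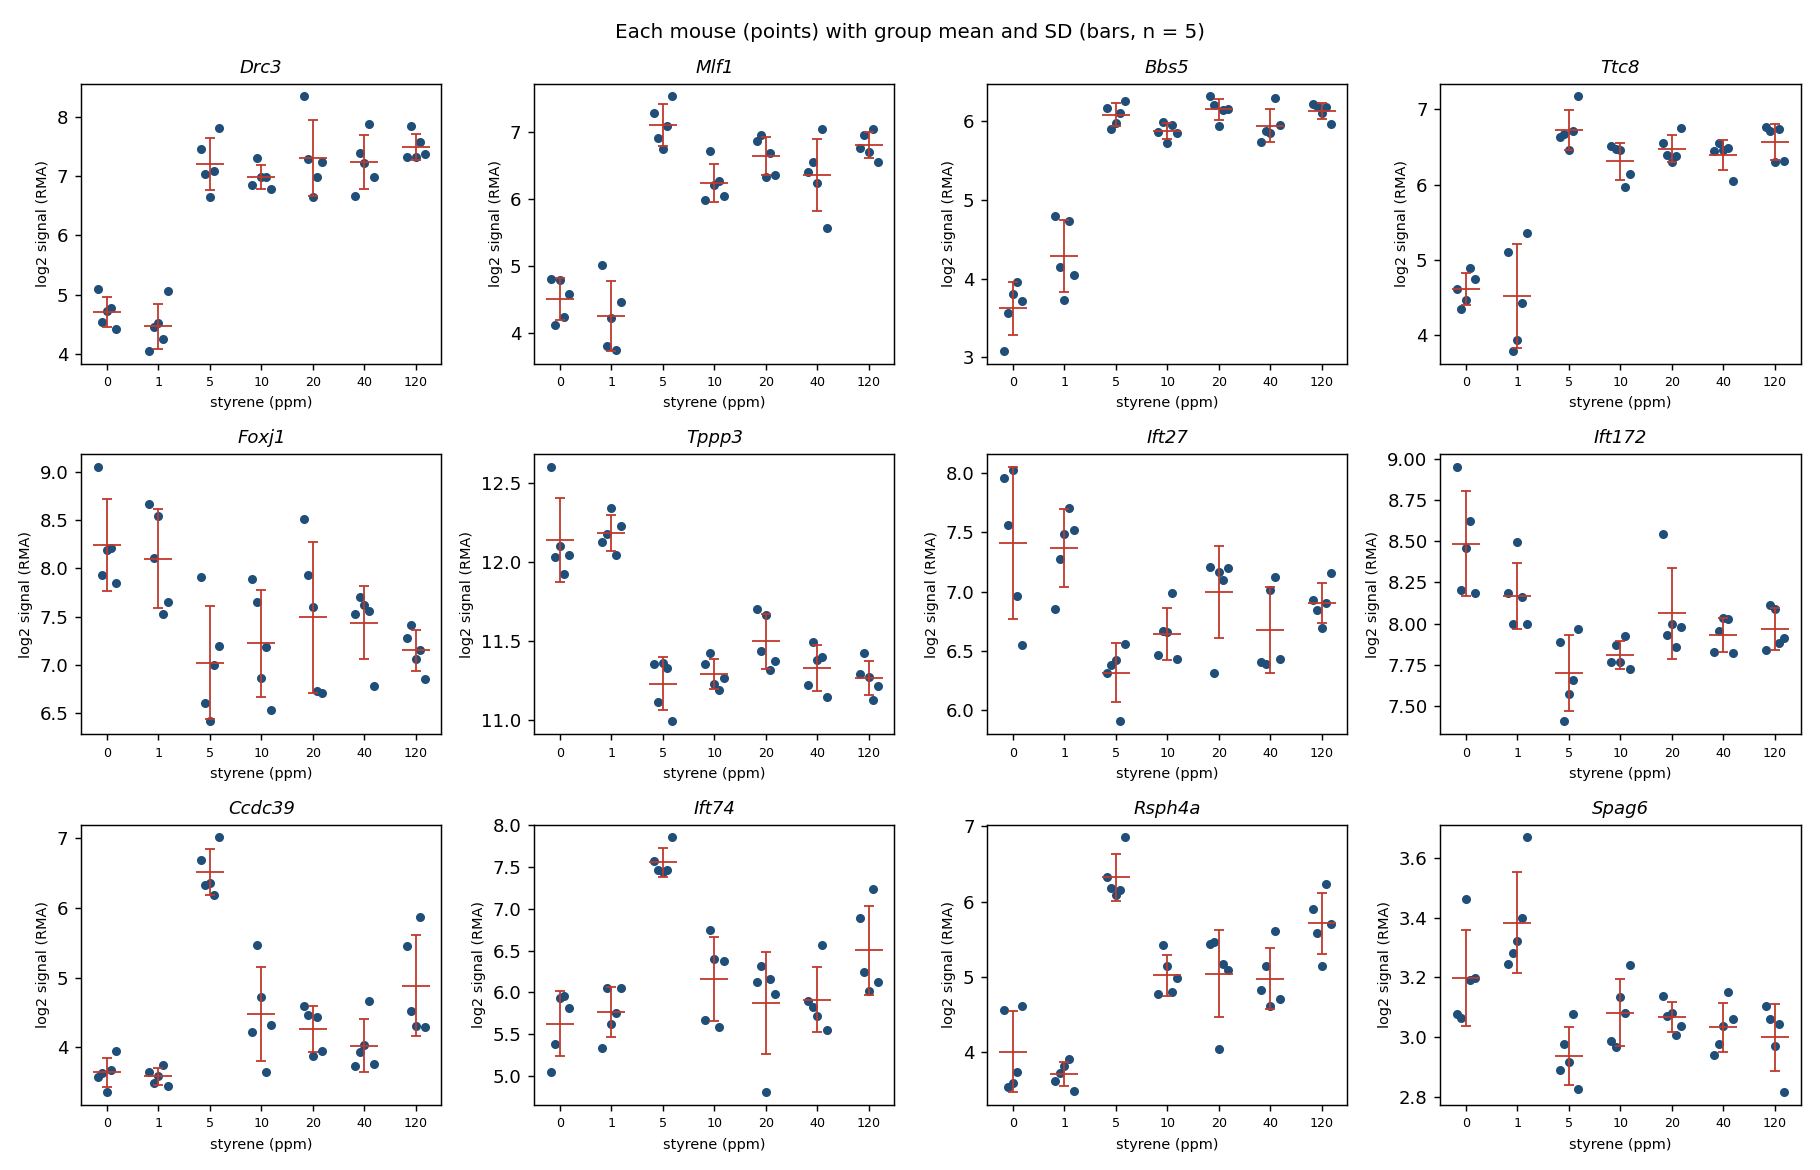
Log2 values of single mice for 12 genes (Drc3, Mlf1, Bbs5, Ttc8, Foxj1, Tppp3, Ift27, Ift172, Ccdc39, Ift74, Rsph4a and Spag6) by styrene concentration in ppm. Points are mice and bars the mean ± SD (n = 5 each). Drc3, Mlf1, Bbs5 and Ttc8 show a step between 1 and 5 ppm, Foxj1 and Tppp3 a step down, and Ccdc39, Ift74 and Rsph4a are highest at 5 ppm.

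The 3 dynein heavy chains measured were all higher at 120 ppm, by less than most of the list. Dnah5, the outer arm motor most often mutated in primary ciliary dyskinesia, had 4.95, 4.60, 4.34, 4.91 and 4.40 at 120 ppm, against 3.83, 4.18, 3.64, 3.81 and 3.25 in air (change 0.90 ± 0.223 SE, adjusted p = 0.000669). It was highest at 5 ppm, with 6.08, 5.08, 4.60, 4.83 and 6.03 (change 1.58, adjusted p = 1.22e-07), and was not called at 40 ppm (0.47, adjusted p = 0.0638). Its calls at 10 and 20 ppm (0.64 and 0.52) rest on few mice. The 10 ppm call was lost without 10 ppm mouse 2 (0.48, adjusted p = 0.0636), and the 20 ppm call without any of air mice 3 to 5 or 20 ppm mice 2, 4 or 5 (adjusted p between 0.0516 and 0.128).

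Dnah11, the outer arm chain of the proximal part of human airway cilia, stood 0.63 to 0.77 above air at all 5 concentrations, and at 120 ppm had a mean of 6.44 ± 0.11 against 5.67 ± 0.276 in air (SD, n = 5 each). Dnah9, its distal counterpart, gave 0.56 ± 0.182 (SE; adjusted p = 0.00733) at 120 ppm and was not called at 5 ppm (0.25) or 10 ppm (0.40). Its dimmer probe set was called lower at 5 ppm (-0.30), so the 2 probe sets disagreed.

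Among the genes of the radial spokes, the nexin link and the central pair, 8 of 10 were higher at 120 ppm and 1 lower, with a median change of 0.96. The largest change of the whole list at 120 ppm was that of Drc3, a subunit of the nexin-dynein regulatory complex that links neighbouring microtubule doublets. It had 7.32, 7.84, 7.31, 7.57 and 7.38 at 120 ppm, against 5.10, 4.54, 4.72, 4.77 and 4.42 in air, a rise of 2.78 ± 0.239 (SE; adjusted p = 6.92e-12). Between 5 and 40 ppm the rise was 2.27 to 2.59, so the lowest of these concentrations already gave most of it. A second, dimmer Drc3 probe set was not called (-0.01 at 120 ppm, adjusted p = 0.956).

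The spoke head genes rose as well. Rsph1 had a mean of 8.12 ± 0.211 at 120 ppm and 6.51 ± 0.371 in air (SD, n = 5 each), a change of 1.62 ± 0.27 (SE; adjusted p = 3.22e-06), and 1.45 to 1.77 at 5 to 40 ppm. At 1 ppm Rsph1 had the largest change of the list, a fall (-0.70) without a call (adjusted p = 0.179). That fall was called without 1 ppm mouse 3 (-0.95, adjusted p = 0.0289). Rsph4a had 5.91, 5.59, 5.14, 6.23 and 5.70 at 120 ppm, against 4.56, 3.53, 3.58, 3.74 and 4.61 in air (change 1.71, adjusted p = 1.88e-07). Its 5 ppm mice were higher still, at 6.32, 6.19, 6.09, 6.16 and 6.86, a change of 2.32, whereas 10, 20 and 40 ppm gave 1.02, 1.04 and 0.97. Lrrc23, a radial spoke protein needed for sperm motility in mice, changed by 1.13 at 120 ppm and by 0.79 to 1.11 at 5 to 40 ppm.

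Central pair genes were mixed. Ak7, an axonemal adenylate kinase, had 7.95, 8.14, 7.61, 8.42 and 7.75 at 120 ppm, against 6.36, 5.01, 6.09, 5.74 and 6.65 in air, a rise of 2.00 ± 0.254 (SE; adjusted p = 2.34e-08). Spef2, a central pair projection protein, gave 0.76 at 120 ppm and 1.49 at 5 ppm, and Spag16, a central pair scaffold, 0.80 and 1.12. The dimmer Spef2 probe set was called higher at 5 ppm (0.93, adjusted p = 7.86e-06) and not at 120 ppm (0.22, adjusted p = 0.2585). The Spef2 call at 20 ppm (0.41) was lost without air mouse 5 or 20 ppm mouse 1 or 2. Its call at 40 ppm (0.45) was lost without air mouse 5 or 40 ppm mouse 4. The 4 probe sets of Spag16 disagreed: besides the brightest, 1 was called lower at 120 ppm (-0.23, adjusted p = 0.0411) and the others were below air without a call (-0.19 and -0.11). Hydin, which is lost in a hydrocephalus mouse, changed by 0.36 ± 0.133 (SE, adjusted p = 0.019) at 120 ppm. That call was lost without 120 ppm mouse 2 (0.31, adjusted p = 0.0507) or 4 (0.27, adjusted p = 0.0827). At 5 ppm Hydin was not called (0.21). Its calls at 10 and 40 ppm (0.31 and 0.30) were each lost without any of air mice 2 to 5, among others. Its 20 ppm call (0.39) was lost without 20 ppm mouse 1 (0.27, adjusted p = 0.0676). The dimmer Hydin probe set gave -0.0027 at 120 ppm (adjusted p = 0.98).

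Spag17 was called at no concentration against air (-0.11 at 120 ppm, 0.23 at 5 ppm), although its dimmer probe set was called higher at 5 ppm (0.57, adjusted p = 0.00359). Spag6, another central pair protein, was read from a dim probe set, at 3.10, 3.06, 2.97, 3.04 and 2.82 at 120 ppm, against 3.08, 3.06, 3.46, 3.19 and 3.20 in air. The groups overlapped and the change was -0.20 ± 0.0829 (SE; adjusted p = 0.0332). That call was lost without air mouse 3 (-0.13, adjusted p = 0.148), 120 ppm mouse 3 (-0.19, adjusted p = 0.0565) or 120 ppm mouse 5 (-0.15, adjusted p = 0.112). At 5 ppm Spag6 was also called lower (-0.26), again with overlap. It was not called at 10, 20 and 40 ppm (-0.12, -0.13 and -0.17).

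**Figure D4:**
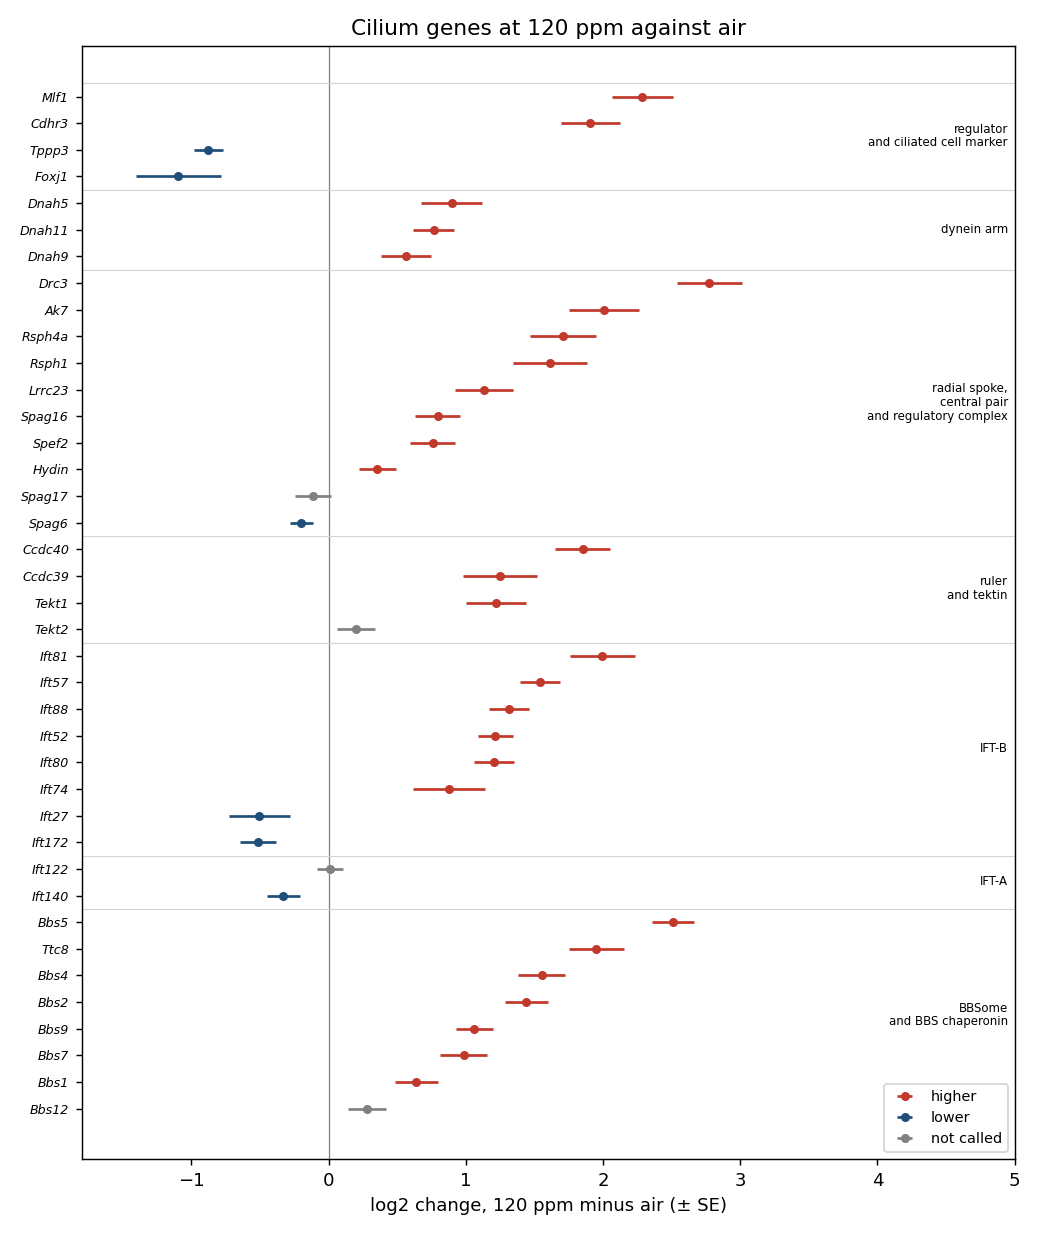
Log2 change at 120 ppm against air for the 39 genes, grouped by role, as points with ± SE from the limma fit of 5 mice per group. Red marks genes called higher (29), blue genes called lower (6) and grey genes not called (4). The largest changes are those of Drc3 and Bbs5, at 2.78 and 2.51.

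The molecular ruler proteins Ccdc39 and Ccdc40 set the repeat along the axoneme at which spokes and inner arms attach, and they act as a pair. Ccdc40 had a mean of 6.51 ± 0.287 at 120 ppm and 4.66 ± 0.193 in air (SD, n = 5 each), a rise of 1.85, and rose by 1.47 to 1.74 at 5 to 40 ppm. For its partner the highest group was 5 ppm. Ccdc39 had 6.69, 6.33, 6.35, 6.19 and 7.02 at 5 ppm, against 3.58, 3.63, 3.36, 3.68 and 3.95 in air, a rise of 2.88 ± 0.267 (SE; adjusted p = 1.84e-11). At 10, 20 and 40 ppm the changes were 0.84, 0.63 and 0.39, the last without a call (adjusted p = 0.202), and the 20 ppm call was lost without any of air mice 1 to 4 or 20 ppm mice 1, 2 or 4 (adjusted p between 0.0559 and 0.0941). At 120 ppm its mice spread widely, at 5.45, 4.52, 4.31, 5.87 and 4.29 (change 1.25, adjusted p = 0.000118).

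With the array axis as covariate the Ccdc39 change was -0.32 at 10 ppm and -0.33 at 20 ppm, without a call. The other Ccdc39 probe sets, 2 in number, were both dimmer and changed by -0.02 and -0.04 at 120 ppm. At 5 ppm 1 of them was called higher (0.58, adjusted p = 1.54e-05) and the other was not called (-0.13, adjusted p = 0.171). Tekt1, a filament protein inside the doublets, rose by 1.22 at 120 ppm and 0.98 to 1.32 at the other concentrations from 5 ppm. Tekt2 was called at 20 ppm alone (0.39 ± 0.139 SE, adjusted p = 0.0147), a call that was lost without air mouse 1 (0.31, adjusted p = 0.0613) or 20 ppm mouse 3 (0.32, adjusted p = 0.0535).

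Of the 8 IFT-B genes, 6 were higher at 120 ppm and 2 lower, with a median change of 1.21. The higher ones were Ift52, Ift57, Ift74, Ift80, Ift81 and Ift88, and the lower ones Ift27 and Ift172. Ift57, a peripheral subunit, had 7.39, 7.14, 6.89, 7.12 and 6.92 at 120 ppm, against 5.70, 5.51, 5.72, 5.20 and 5.64 in air, a rise of 1.54 ± 0.147 (SE; adjusted p = 6.13e-11). Ift52, a core subunit, had 7.23, 7.30, 7.28, 7.31 and 7.15 at 120 ppm, against 5.46, 5.85, 6.32, 6.35 and 6.20 in air (change 1.22). Its change varied little with concentration, between 1.02 and 1.24 from 5 ppm up. The dimmer Ift57 probe set was called lower at 5 ppm (-0.26, adjusted p = 0.0287), opposite to the brightest, and gave -0.22 at 120 ppm (adjusted p = 0.0692).

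Ift74 and Ift81 form a pair that binds tubulin, and both were highest at 5 ppm. Ift81 had 7.54, 7.50, 7.51, 7.39 and 7.88 at 5 ppm, against 5.19, 4.68, 4.75, 4.97 and 5.58 in air (change 2.53), and changed by 1.48, 1.27 and 1.13 at 10, 20 and 40 ppm and 1.99 at 120 ppm. Ift74 had 7.57, 7.47, 7.44, 7.46 and 7.85 at 5 ppm, against 5.05, 5.39, 5.93, 5.95 and 5.81 in air (change 1.93 ± 0.26 SE, adjusted p = 5.26e-08). At 10, 20 and 40 ppm Ift74 was not called (0.53, 0.25 and 0.28), and at 120 ppm its change was 0.88 (adjusted p = 0.00365). With the array axis as covariate the Ift74 changes turned negative at every concentration from 5 ppm (-0.30 at 5 ppm, adjusted p = 0.737, and -0.76 at 120 ppm, adjusted p = 0.126) and were called lower at 10, 20 and 40 ppm (-1.01 at 20 ppm, adjusted p = 0.0102). Of the 3 Ift81 probe sets, 2 were called higher at 120 ppm and the remaining one gave -0.22 without a call.

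Ift80 rose by 1.21 at 120 ppm and 1.49 at 5 ppm, with both of its probe sets higher. Ift88, the subunit whose loss in mice gives polycystic kidneys, rose by 1.31 at 120 ppm and 1.54 at 5 ppm. It was also called at 1 ppm, where the mice had 5.11, 4.88, 5.09, 4.72 and 4.27, against 4.32, 4.17, 4.01, 4.29 and 4.52 in air (change 0.55 ± 0.146 SE, adjusted p = 0.0364). The 1 ppm and air mice overlapped, and that call was lost without air mouse 2 or 3 or without any of 1 ppm mice 1 to 4 (adjusted p between 0.051 and 0.101).

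Ift172 and Ift27 moved against the rest of their complex. Ift172, the large peripheral subunit, had 7.84, 8.11, 8.09, 7.88 and 7.91 at 120 ppm, against 8.95, 8.21, 8.46, 8.62 and 8.18 in air, with no overlap, and fell by 0.52 ± 0.13 (SE; adjusted p = 0.000809). It was lower at each concentration from 5 ppm (-0.78, -0.67, -0.42 and -0.55 at 5, 10, 20 and 40 ppm). Ift27, the small GTPase that hands the BBSome out of the cilium, had 6.93, 6.85, 6.69, 6.90 and 7.16 at 120 ppm, against 7.96, 7.56, 8.02, 6.96 and 6.55 in air. The groups overlapped with air mice 4 and 5 at the low end, and the change was -0.50 ± 0.22 (SE; adjusted p = 0.0418).

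The 120 ppm call of Ift27 was lost without air mouse 1 (-0.37, adjusted p = 0.151), 2 (-0.47, adjusted p = 0.0796) or 3 (-0.35, adjusted p = 0.161), and without any of 120 ppm mice 1 to 4 (adjusted p between 0.0579 and 0.0881). At 5 ppm Ift27 fell by 1.09 (adjusted p = 4.29e-05), and both of its probe sets were lower there and at 120 ppm. With the interquartile range as covariate neither Ift27 nor Ift172 was called at 120 ppm. With the array axis as covariate the Ift172 change was 0.0090, 0.028 and 0.066 at 5, 20 and 120 ppm, without a call.

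Read from their brightest probe sets, the 2 IFT-A genes of this list were called higher at no concentration. Wdr35, an IFT-A subunit outside the list, rose by 2.07 at 120 ppm. Ift140 had 7.50, 7.74, 7.78, 7.90 and 7.68 at 120 ppm, against 7.76, 7.89, 8.11, 8.30 and 8.19 in air (change -0.33 ± 0.121 SE, adjusted p = 0.0168), and fell by 0.72 at 5 ppm. Its call at 120 ppm was lost without air mouse 4 (-0.27, adjusted p = 0.0604) or 120 ppm mouse 1 (-0.28, adjusted p = 0.0566). Ift122 was called lower at 1 ppm, with 7.01, 6.69, 7.09, 7.14 and 6.91 there against 7.30, 7.19, 7.46, 7.50 and 7.43 in air, with no overlap (change -0.41 ± 0.095 SE, adjusted p = 0.0199). It was lower at 5 ppm too (-0.38) and lay at 0.01 at 120 ppm. Without 1 ppm mouse 2 the 1 ppm change was -0.34 (adjusted p = 0.0709). A dimmer Ift122 probe set was called lower at 5 ppm (-0.21) and higher at 20, 40 and 120 ppm (0.37, 0.26 and 0.23).

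Nearly all BBSome genes were higher. At 120 ppm 7 of 8 were called, with a median change of 1.25, and at 5 ppm all 8, although the 5 ppm call of Bbs1 was lost without 5 ppm mouse 5 (0.35, adjusted p = 0.0511). Bbs5, a subunit that binds membrane phosphoinositides, had 6.22, 6.19, 6.10, 6.18 and 5.96 at 120 ppm, against 3.08, 3.57, 3.80, 3.95 and 3.71 in air. It rose by 2.51 ± 0.152 (SE; adjusted p = 6.55e-15), and by 2.25 to 2.53 at 5 to 40 ppm. At 1 ppm its mice had 4.80, 4.14, 3.72, 4.73 and 4.05, overlapping air, and the change was 0.67 (adjusted p = 0.0177). The 1 ppm call was lost without 1 ppm mouse 1 (0.54, adjusted p = 0.0544) or 4 (0.56, adjusted p = 0.0524).

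Ttc8, also known as Bbs8, had 6.76, 6.71, 6.30, 6.75 and 6.32 at 120 ppm, against 4.62, 4.36, 4.46, 4.89 and 4.75 in air, a rise of 1.95 ± 0.202 (SE; adjusted p = 3.41e-10). Bbs4, which ties the complex to centriolar satellites, rose by 1.55, with all 4 of its probe sets higher, and Bbs2 by 1.44. Bbs9 rose by 1.06 and Bbs1, the subunit that contacts ARL6, by 0.64 at 120 ppm. None of these 5 genes, nor Bbs5, was called in the F test among the concentrations from 5 ppm up.

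Bbs7 and Bbs12 followed concentration differently. Bbs7, the core subunit that pairs with Bbs2, rose by 0.98 at 120 ppm and 1.30 at 5 ppm, although its second probe set was below air without a call (-0.37 and -0.42). Bbs12, a chaperonin-like protein that assembles the complex and is not part of it, had 4.40, 4.51, 4.55, 4.62 and 5.24 at 5 ppm, against 3.64, 3.83, 3.86, 3.78 and 4.13 in air, a rise of 0.82 (adjusted p = 3.36e-06). At 120 ppm its change was 0.28 ± 0.139 (SE) without a call (adjusted p = 0.0707), and the call was gained without air mouse 5 (0.35, adjusted p = 0.0316) or 120 ppm mouse 3 (0.35, adjusted p = 0.0342).

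Differences between the exposed groups were tested next, by contrasts in which the air means do not enter. Set against the mean of 10, 20 and 40 ppm, 15 of the 39 genes were higher at 5 ppm and 4 were lower, with 42.3% of all genes called, 13.5% higher and 28.8% lower, and 11.1% when a change of at least 1.5-fold was also asked for. The lower count fell to 1 without 5 ppm mouse 2. Ccdc39 stood 2.26 ± 0.218 (SE; adjusted p = 6.39e-09) above the 3 middle concentrations, Ift74 1.58 ± 0.213 (adjusted p = 8.48e-07), Rsph4a 1.31 ± 0.198 (adjusted p = 4.18e-06) and Ift81 1.23 ± 0.194 (adjusted p = 7.18e-06). Dnah5 and Spef2 followed at 1.04 and 1.01, and Mlf1, Ak7, Bbs7, Ift80 and Bbs12 lay between 0.55 and 0.69. The lower genes were Ift27 (-0.45), Ift122 (-0.38), Tekt2 (-0.37) and Ift140 (-0.30), so both IFT-A genes of the list were among them.

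Drc3 and Bbs5, the genes with the largest changes at 120 ppm, were close to the middle concentrations at 5 ppm (0.04 ± 0.195 and 0.09 ± 0.124, SE), as were Rsph1 (-0.01 ± 0.22) and Ccdc40 (-0.00 ± 0.164), all without a call. Over the list the median difference was 0.04, and centring each array on its median put it at -0.00. A moderated F test among the 5 groups from 5 to 120 ppm called 13 of the 39 genes, 33.3% beside 31.3% of all genes. The 5 ppm arrays had axis values of -1.41 to -1.04, outside the range of -0.787 to 0.494 of the arrays at 10 to 40 ppm, and with that axis as covariate 3 genes were higher at 5 ppm, 0 were lower and the F test called 1.

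At 120 ppm against the mean of 10, 20 and 40 ppm no gene of the list was called in limma, with 0.0936% of all genes called, 0.0117% higher and 0.0819% lower, and 0.0351% with at least a 1.5-fold change. At an unadjusted p under 0.05, 8 of the 39 were higher and 0 lower, beside 10.7% of all genes in either direction. The largest differences were those of Rsph4a (0.70 ± 0.198 SE, adjusted p = 0.163) and Ift81 (0.70 ± 0.194 SE, adjusted p = 0.15), and the median was 0.14. Ccdc39 gave 0.63 and Ift74 0.52, both without a call. This comparison and that of 5 ppm share the mice at 10 to 40 ppm.

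**Figure D5:**
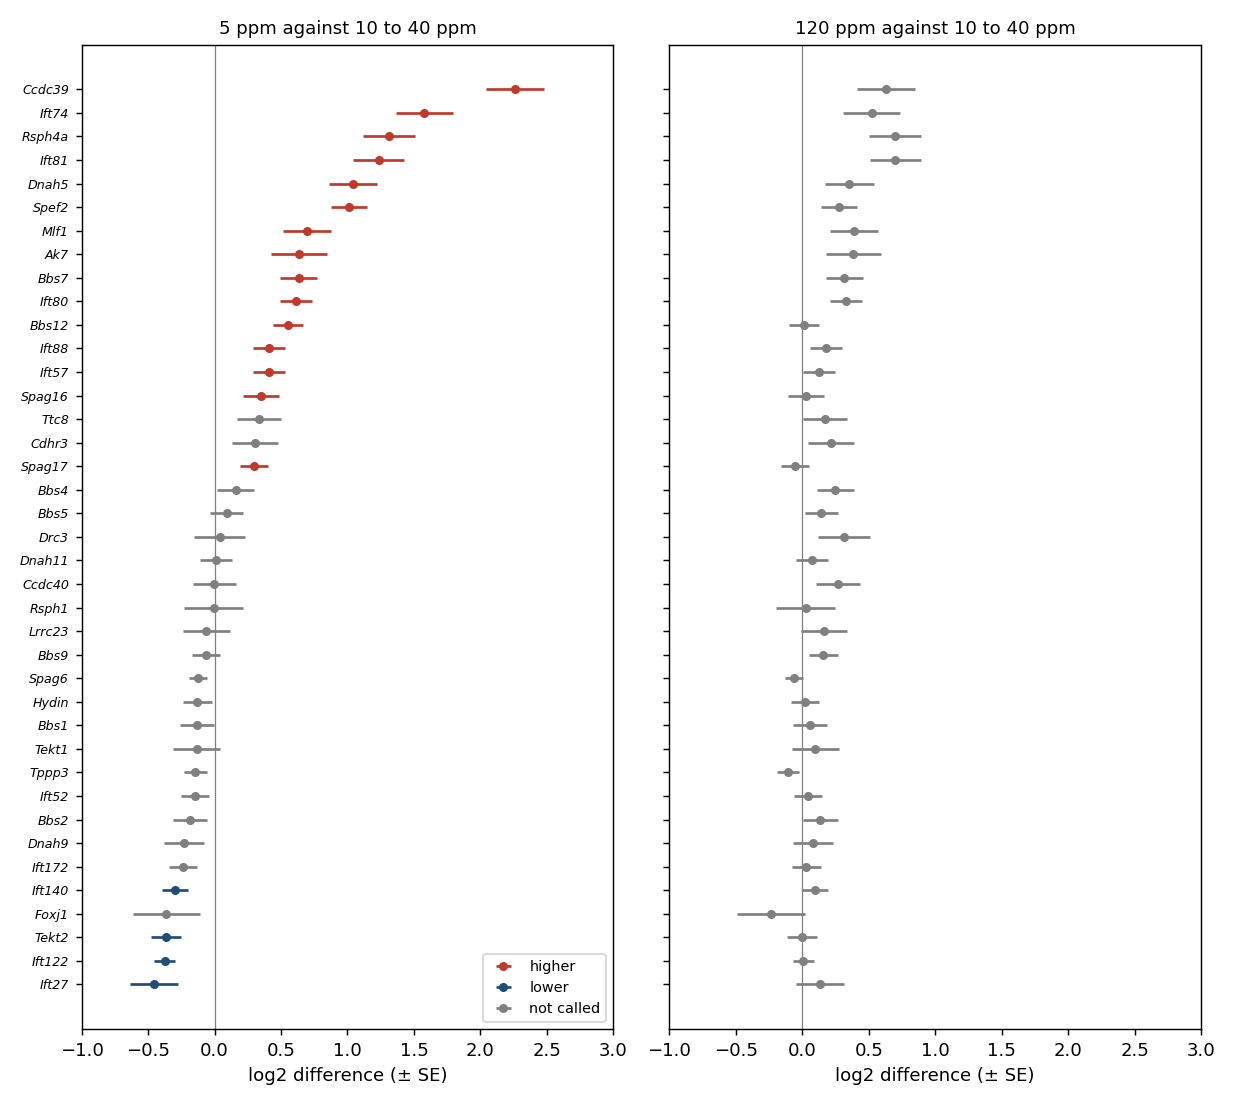
Log2 difference (± SE) of the 39 genes between 5 ppm and the mean of 10, 20 and 40 ppm, and between 120 ppm and the same mean, each from 5 mice per group. In the 5 ppm panel 15 genes are called higher and 4 lower, with Ccdc39 at 2.26; in the 120 ppm panel none is called and the largest differences are 0.70.

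Other genes of the same pathways were read from lists that exclude the 39. Of 67 measured axonemal and assembly genes, 33 were higher and 11 lower at 120 ppm, with a median change of 0.32. At 5 ppm 29 were higher and 19 lower, with a median of 0.24. The called shares, 65.7% at 120 ppm and 71.6% at 5 ppm, lay below the 68.9% and 77.0% of all genes. By direction, all genes gave 29.8% higher and 39.1% lower at 120 ppm, and 29.6% and 47.4% at 5 ppm. Among them Cfap54, a central pair protein, had means of 5.77 ± 0.377 at 120 ppm and 3.60 ± 0.238 in air (SD, n = 5 each), a change of 2.18. Enkur rose by 1.87 and Iqcg, a nexin link protein, by 1.17, while Dnal4 fell by 1.37, the dynein assembly factor Dnaaf5 by 0.84 and the tubulin Tuba1a by 0.53. Of 33 other transport and BBS genes, 21 were higher and 5 lower at 120 ppm (78.8% called), with a median of 0.82. At 5 ppm 21 were higher and 8 lower (87.9% called), with a median of 1.13.

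In that transport list Cluap1, an IFT-B subunit also called Ift38, had means of 6.48 ± 0.160 at 120 ppm and 4.16 ± 0.223 in air, a change of 2.32 (adjusted p = 7.3e-16). Wdr35, an IFT-A subunit, rose by 2.07 and Tctex1d2, of the retrograde dynein, by 1.36. Tulp3, an adaptor that loads receptors on the A complex, fell by 1.31, Rabl6 by 1.07 and the kinesin Kif3c by 0.98. Of 21 ciliogenesis regulators 11 were higher and 7 lower at 120 ppm (85.7% called, beside 68.9% of all genes), with a median of 0.46. At 5 ppm 12 were higher and 9 lower (100% called, beside 77.0% of all genes), with a median of 0.77. Myb, an early factor of multiciliated cells, rose by 1.72, as did E2f5, which acts in the same early programme, and Cep63 by 1.16. Rfx1, a factor that binds the RFX element, fell by 1.11, the centriole appendage protein Cep164 by 0.84 and Cby1 by 0.46.

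Markers of the cells that whole lung can hold were read at 120 ppm against air. The marker counts here and below stand beside 68.9% of all genes called, 29.8% higher and 39.1% lower. Of 15 ciliated cell markers outside the 39, 8 were higher and 3 lower, with a median change of 0.75, and 6 of them also stand in the pathway lists above. Their summed level was 13.5 to 13.7 at 120 ppm, against 13.1 to 13.4 in air, without overlap. Such a level is the log2 of summed unlogged values, so bright genes weigh most in it. Sec14l3, the brightest, had means of 12.8 at 120 ppm and 12.1 in air, a change of 0.75. Tubb4b, the next in brightness, changed by 0.02 without a call. Of 14 club cell markers 3 were higher and 0 lower, with a summed level of 15.99 to 16.16 at 120 ppm against 15.7 to 16.1 in air; Scgb1a1 and Cbr2 changed by 0.09 and 0.01, without a call.

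Alveolar type 2 markers were higher for 4 of 10 and lower for 1 (Sftpc -0.00, Lyz2 0.33), and type 1 markers higher for 5 of 9 and lower for 3 (Ager -0.15, Hopx 0.56). Alveolar macrophage markers were higher for 5 of 9 and lower for 1, with a summed level of 13.0 to 13.8 at 120 ppm against 12.2 to 12.6 in air (Chil3 1.43, Car4 -0.33). Endothelial markers were lower for 6 of 10 and higher for 3 (Ramp2 -0.33, Cldn5 -0.93), with 13.8 to 14.1 at 120 ppm against 14.2 to 14.5 in air. Basal and neuroendocrine markers were lower for 5 of 6 (Syp -0.76; Krt5 -0.77 without a call), and fibroblast and smooth muscle markers higher for 4 of 9 and lower for 3 (Col3a1 0.00, Acta2 -1.01). The part of these cell markers in the changes of the 39 genes was not tested.

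Probe sets limit how firmly a single gene can be read. Of the 39 genes, 25 had 1 probe set and 14 had more, and in 4 of those 14 all probe sets shared the call of the brightest at 120 ppm. Bbs4, Ift27 and Ift80 were among these 4, and the remaining one, Spag17, had no probe set called at 120 ppm. Opposite calls were found for Spag16 at 5, 10, 40 and 120 ppm, for Ift57 at 5 ppm and for Ift81 at 20 ppm. At 10 ppm every dimmer Spag16 probe set was called lower (-0.27, -0.30 and -0.24), against 0.68 for the brightest.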

How the data were processed

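Whole lung RNA of 35 mice, 5 in each of 7 groups, was hybridised to 1 Affymetrix array per mouse after labelling from the poly(A) end. The values deposited by the authors are on the log2 scale. The submitters' processing notes name RMA, which corrects background, normalises arrays and summarises probes, and Partek, without versions. The deposited table held 45037 probe sets, of which 28898 carried 1 gene symbol in the platform annotation, 551 several and 15588 none, and probe sets with several symbols or none were not used. Arrays have no read depth, and their number limits the precision.

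Each of 17097 genes was read from its brightest probe set. A mean per group was fitted to all genes with limma 3.58.1 in R 4.3.3 (lmFit, eBayes). The p-values were adjusted by Benjamini-Hochberg over all genes within a comparison, with calls at an adjusted p under 0.05. Dimmer probe sets were tested in a separate fit of the same form, adjusted over all 45037 probe sets. Calls compared between the probe sets of a gene come from that separate fit, and can differ from the gene calls near the threshold. The comparisons were each concentration with air, 5 and 120 ppm with the mean of 10, 20 and 40 ppm, an F test among 5 to 120 ppm, and a trend over log2(ppm + 1). No filter on dim genes was applied. The labels call the 5 mice of a group biological replicates, so p-values reflect differences among mice. The fits were tested on simulated data in which a small share of genes changed, at 120 ppm alone and without array-wide differences. That setting differs from these arrays, so it tests the computation and not the calls made here. Alternatives were other scalings, averaging all probe sets of a gene, a filter on dim genes, array covariates, a replicate block, other priors and leaving out each mouse.

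The members, the pathway and marker lists and the tests were chosen with earlier results of these data known. All 39 measured genes were described, and of each pathway list the 3 called genes with the smallest adjusted p at 120 ppm in each direction were named, of each marker list the 2 brightest. Promoters are RefSeq sequences of GRCm38.p6. Protein sequences were not used here.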

Additional observations from a re-analysis of the deposited data

Results flagged for a closer look

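In 14 of 273 groups of 5 mice (39 genes by 7 groups), 1 mouse lay apart from the other 4 by more than 0.71 of the range of its group, which chance gives in about 1 group in 20. Below the rest were Foxj1 in 40 ppm mouse 5 (log2 value 6.78, nearest mouse 7.52), Ttc8 in the same mouse (6.05, nearest 6.44), Cdhr3 in air mouse 2 (4.53, nearest 5.31), Dnah11 in air mouse 3 (5.19, nearest 5.74) and Ift27 in 20 ppm mouse 2 (6.31, nearest 7.1). Mouse 3 at 20 ppm was low for Rsph4a (4.04, nearest 5.09), Ift74 (4.81, nearest 5.97) and Ift81 (5.39, nearest 6.34), all genes that were highest at 5 ppm. Above the rest were Tppp3 and Rsph1 in air mice 1 and 5 (12.6, nearest 12.1, and 7.16, nearest 6.39), Ak7 in 40 ppm mouse 4 (8.27, nearest 7.52) and Bbs12 in 5 ppm mouse 5 (5.24, nearest 4.62). Mouse 1 at 20 ppm was high for Ift52 (7.38, nearest 7.23) and Ift172 (8.54, nearest 8). The arrays of 20 ppm mice 1 and 3 also stood out as a whole. From 5 ppm up they had the lowest interquartile ranges (3.28 and 3.30) and the highest values on the array axis (0.24 and 0.49). The part of these array differences in the flagged values was not tested.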

How the results depend on the processing

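The counts of genes called higher at 5 to 120 ppm stayed within 1.5 times of the reported ones under every alternative except the array axis as covariate, which gave 9, 13, 19, 15 and 16 higher and 0, 2, 1, 2 and 1 lower at 5, 10, 20, 40 and 120 ppm, medians of 0.56, 0.49, 0.57, 0.50 and 0.64, 3 higher and 0 lower for 5 ppm against 10 to 40 ppm, and 1 in the F test. With the interquartile range as covariate 1 gene was lower at each of these 5 concentrations, 0 and 0 were called at 1 ppm, and the trend called 7 higher and 0 lower. Quantile normalisation gave 0 lower at 1 ppm, 5 lower at 20 ppm and medians of 0.81, 0.65 and 0.59 at 5, 20 and 40 ppm. Averaging all probe sets of a gene gave medians of 0.91, 0.63, 0.47 and 0.85 at 5, 20, 40 and 120 ppm, and leaving out genes with a mean below 3.72 a median of 1.30 at 5 ppm. With only the groups compared in the fit, 0 higher and 0 lower were called at 1 ppm and 1 lower at 20 ppm. Asking for at least 1.5-fold left 1 higher and 0 lower at 1 ppm, 3 lower at 40 ppm, 2 lower at 120 ppm and 0 lower for 5 ppm against 10 to 40 ppm. The causes of these shifts were not tested.

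Leaving out each mouse gave 0 to 2 higher and 0 to 3 lower at 1 ppm, and 12 to 15 higher and 1 to 5 lower for 5 ppm against 10 to 40 ppm; over all single-gene changes 2247 values stayed on their side of the threshold, 68 calls were lost and 25 gained. The mouse numbers did not meet the criterion for pairing, which was that all same-number pairs correlate above 0.1: deviations of 105 such pairs correlated between -0.378 and 0.441 (median 0.0648, 46 above 0.1), beside a median of -0.0077 over 420 pairs of different number (113 above 0.1). That criterion is strict and cannot exclude a weaker link between mice of the same number. A replicate block left 15 higher and 4 lower for 5 ppm against 10 to 40 ppm. The block kept 233 single-gene changes against air on their side of the threshold, with 1 call gained (Ift140 at 20 ppm).

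Changes of single genes turned sign as follows; where 5 values stand together they are those at 5, 10, 20, 40 and 120 ppm. With the array axis as covariate, Foxj1 gave 0.48, 0.15, 0.21, 0.22 and 0.16, Ift74 gave -0.30, -0.9996, -1.01, -1.06 and -0.76, Ift172 gave 0.0090, 0.028 and 0.066 at 5, 20 and 120 ppm, Ccdc39 gave -0.32 and -0.33 at 10 and 20 ppm, Bbs12 gave -0.14 at 5 ppm, Ift80 gave -0.019 at 10 ppm and Ift81 gave -0.12 at 40 ppm. With the interquartile range as covariate, Bbs1 gave -0.076 at 5 ppm and Foxj1 0.17 and 0.16 at 20 and 40 ppm. Averaging probe sets gave Spag16 -0.034 at 10 ppm, and 1 ppm in place of air gave Ift122 0.032 and 0.26 at 5 and 10 ppm. Among dimmer probe sets, Drc3 gave -0.11, -0.055, -0.058, -0.044 and -0.010, Bbs7 gave -0.42, -0.38, -0.31, -0.19 and -0.37, Ift57 gave -0.26, -0.21, -0.15, -0.19 and -0.22, Ift81 gave -0.15, -0.20, -0.28, -0.19 and -0.22, Dnah9 gave -0.30, -0.17, -0.16 and -0.15 at 5, 20, 40 and 120 ppm and Hydin gave -0.091 and -0.0027 at 40 and 120 ppm. The 3 dimmer probe sets of Spag16 gave -0.30, -0.27, -0.16, -0.066 and -0.19; -0.063, -0.30, -0.090, -0.097 and -0.11; -0.29, -0.24, -0.19, -0.35 and -0.23. The 2 dimmer probe sets of Ccdc39 gave -0.081, -0.14 and -0.025 at 10, 20 and 120 ppm; -0.13, -0.12, -0.11 and -0.038 at 5, 10, 20 and 120 ppm.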
